A study of Mus musculus with 2 samples.

Results

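The acute phase response is the rapid change in plasma proteins that follows infection or tissue injury. Interleukin-6 type cytokines signal through gp130, the JAK kinases and STAT3, and interleukin-1 and tumour necrosis factor signal through NF-kB, while the C/EBP factors act on many of the same promoters. The liver is the main source of most of these proteins, but lung epithelium also transcribes several of them, among them serum amyloid A3 and lipopolysaccharide-binding protein. The members described here are 10 mouse genes named as acute phase serum proteins: the serum amyloid A genes Saa1, Saa2, Saa3 and Saa4, the orosomucoid genes Orm1 and Orm2, the haptoglobin gene Hp, the leucine-rich glycoprotein gene Lrg1, the inter-alpha-trypsin inhibitor heavy chain gene Itih4 and the kininogen gene Kng2. Each was found by its symbol in the platform annotation, and each had 1 probe, so 10 of 19505 named genes were members.

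Lung cells positive for an SPC/GFP reporter and for the epithelial surface protein EpCAM were sorted from mice exposed to air or to smoke, in both cases for 3 months. SPC stands for surfactant protein C, which alveolar type 2 cells secrete. Total RNA of each condition was hybridised to 1 Clariom S Mouse array, which probes whole transcripts, so the 2 arrays give 1 difference per gene, with no replicate check, no SD and no p-value, and each difference compares these samples and not the conditions. The strain, age and sex of the mice, the number of animals per sample, any pooling, the construction of the reporter and the kind of smoke are unstated in the labels and design text. What limits the precision is the number of arrays.

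All signals below are deposited values on a log2 scale, and a difference is the smoke value minus the air value. Fold values are 2 to the power of that difference. The members were proposed with their smoke and air values known, so their differences are a description and support nothing by themselves. A gene counted as above the level filter when the higher of its values reached 4.57, the median over both arrays. Each difference was set beside those of the 200 genes nearest in mean level, whose robust SD (a scaled median absolute deviation) holds measurement error and real differences together. Of the alveolar type 2 markers measured, 8 of 13, Sftpc and Sftpb among them, stood at the upper limit of the scale, 19.93, on both arrays. The other 5 differed by 0.00 to 0.15, with the largest difference for Napsa (19.61 in air and 19.76 in smoke). The values are of RNA in the sorted cells, and no protein was measured.

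Of the 10 members, 7 were at least 2-fold higher on the smoke array: Saa3, Saa4, Orm1, Orm2, Lrg1, Itih4 and Kng2. Hp was within 2-fold, and Saa1 and Saa2 were below the level filter on both arrays. No member was at least 2-fold lower. Across all 10419 genes above the filter and below the upper limit on one array or both, 410 (3.94%) were higher and 258 (2.48%) lower by 2-fold or more. Of the 8 members above the filter, Saa4 and Orm2 passed it through the smoke array alone, so their difference was in part required by the filter. The median difference of all 10 members was 1.58, and that of all 19489 genes with a measurable difference was -0.02. The choice of members used these differences, so nothing is read from either comparison.

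**Figure D1:**
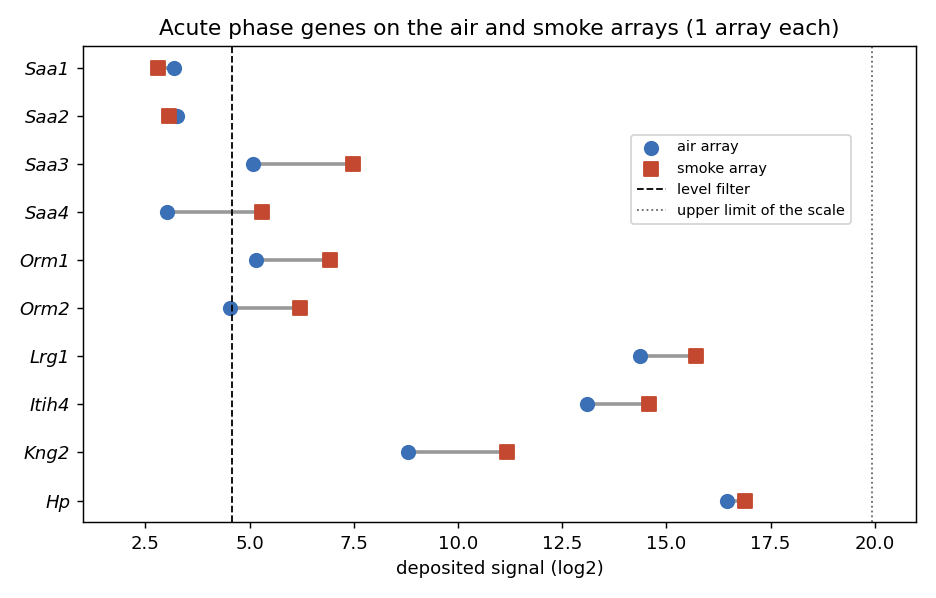
Deposited signal (log2, horizontal axis) of each acute phase gene on the air array (circles) and the smoke array (squares), 1 array each. The dashed line is the level filter at 4.57 and the dotted line the upper limit at 19.93. Saa1 and Saa2 lie left of the filter on both arrays, and the 7 genes from Saa3 to Kng2 have their smoke value at least 1 unit to the right of their air value.

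The serum amyloid A genes encode small apolipoproteins of high density lipoprotein. Saa1 and Saa2 are the acute isoforms that the liver secretes, Saa3 is made outside the liver by epithelial cells, macrophages and adipocytes, and Saa4 is the constitutive isoform. Saa3 stood at 5.09 with air and 7.49 with smoke, with a difference of 2.40 (5.28-fold). None of the 200 genes of like level had a difference as high, and their robust SD was 0.46. Saa3 was above the filter on both arrays, and its difference was 1.97 when an offset of 16 was added on the linear scale, which damps low signals.

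Saa4 stood at 3.02 with air and 5.29 with smoke, with a difference of 2.27 (4.82-fold). The air value was below the filter, and the difference was 1.19 with the same offset. Of its 200 like genes, 1 had a difference as high. An offset cannot change the direction of a difference, so the 2 scales bear on its size alone. For Saa4 that size depends on the treatment of low signal.

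Saa1 was at 3.19 with air and 2.80 with smoke, with a difference of -0.39. Saa2 was at 3.25 and 3.07, a difference of -0.18. These differences were 0.92 and 0.44 times the robust SD of genes of like level in size (0.42 and 0.41), and neither gene reached the filter on any array. The pair thus had no signal above the median of the arrays while Saa3 and Saa4 did on the smoke array. RefSeq lists Saa2 among the older names of Saa1 and Saa1 among those of Saa2, and the pair is near-identical in sequence, so a probe of one may also bind the transcript of the other.

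All 4 genes lie side by side on chromosome 7 in the RefSeq order Saa3, Saa4, Saa1, Saa2. Saal1, the gene before Saa3 in this order among those measured, was at 3.40 and 4.46, a difference of 1.06 with neither value reaching the filter, and Tph1 before it was at 2.92 and 2.80. Hps5 and Gtf2h1, the genes after Saa2, were at 6.03 and 8.49 in air and at 6.84 and 9.16 in smoke, differences of 0.81 and 0.67. On the Saa2 side both genes were thus above the filter and within 2-fold, and on the Saa3 side neither gene reached the filter.

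The promoters of the cluster are shown because members with near-identical and with unrelated upstream sequence stand next to each other in it. RefSeq windows (GRCm38.p6) of 250 bases before the annotated start were found for 8 of the 10 members, Orm1 and Hp being the exceptions. They were searched on both strands for the letters TTGCNNAA, a form of the C/EBP site, GGNNTTTCC, a form of the NF-kB site, and TTCNNNGAA, a form of the STAT site. Among 32851 windows of the same length in the table, 9.56% held the first, 4.93% the second and 7.02% the third. Capitals mark the matches, none of which overlapped another kind of match, and each sequence runs 5′ to 3′ towards the start. The Saa2 window lies at chr7:46751583-46751832 on the plus strand, that of Saa3 at chr7:46715677-46715926 on the minus strand and that of Saa4 at chr7:46732604-46732853 on the minus strand. The Saa3 window lies inside the span of a longer RefSeq model of that gene.
Saa2: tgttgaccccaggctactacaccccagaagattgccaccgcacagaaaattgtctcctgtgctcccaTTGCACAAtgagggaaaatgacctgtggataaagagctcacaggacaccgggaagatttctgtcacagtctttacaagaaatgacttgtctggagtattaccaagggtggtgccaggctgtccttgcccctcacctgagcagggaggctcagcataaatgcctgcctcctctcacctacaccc
Saa3: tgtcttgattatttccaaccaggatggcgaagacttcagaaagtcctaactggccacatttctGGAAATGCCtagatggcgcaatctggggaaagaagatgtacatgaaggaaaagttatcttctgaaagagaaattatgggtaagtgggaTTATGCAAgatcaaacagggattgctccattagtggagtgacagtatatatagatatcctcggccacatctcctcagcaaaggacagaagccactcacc
Saa4: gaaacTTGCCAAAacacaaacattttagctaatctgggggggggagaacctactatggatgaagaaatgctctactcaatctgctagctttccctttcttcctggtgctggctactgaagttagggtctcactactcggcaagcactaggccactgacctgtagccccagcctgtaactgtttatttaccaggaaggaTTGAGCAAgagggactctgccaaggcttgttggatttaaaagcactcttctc

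The Saa1 window was 94.8% identical to that of Saa2, with 11 mismatches and 2 gap positions, and held the same C/EBP match, TTGCACAA. Saa3 and Saa4 were 52.4% and 46.8% identical to Saa2 in global alignments, no higher than some pairs of members from different families (54.5% for Saa1 and Orm2). Saa3 held 1 C/EBP match (TTATGCAA, 99 to 92 bases before the start) and 1 NF-kB match (GGAAATGCC, 187 to 179 bases before the start). Saa4 held C/EBP matches alone, 2 of them. C/EBP letters were thus in all 4 windows, in genes above the level filter and in genes below it. A match is a description of the letters and not of binding.

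The orosomucoids, or alpha-1-acid glycoproteins, are lipocalins of plasma that bind drugs and steroids. Orm1 stood at 5.16 with air and 6.92 with smoke, with a difference of 1.76 (3.39-fold). Orm2 stood at 4.53 and 6.20, a difference of 1.67 (3.18-fold), with the air value just under the filter. For each of them 1 of the 200 genes of like level had a difference as high, and the robust SDs were 0.47 and 0.53. With the offset of 16 the differences were 1.41 and 1.19. Orm3, the third gene of the cluster and no member here, did not reach the filter (2.57 and 3.09). The 3 genes are close copies, so the signals of Orm1 and Orm2 may not be separate measurements.

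The Orm genes lie together on chromosome 4 in the RefSeq order Orm1, Orm3, Orm2. The Orm2 promoter is shown because it holds a palindromic C/EBP match, TTGCGCAA, 120 to 113 bases before the start. Its copy upstream of Orm3 reads TTGCACAA, which is also a C/EBP match but not a palindrome. The windows of Orm2 and Orm3 were 85.9% identical, and the Orm2 window lies at chr4:63362199-63362448 on the plus strand.
Orm2: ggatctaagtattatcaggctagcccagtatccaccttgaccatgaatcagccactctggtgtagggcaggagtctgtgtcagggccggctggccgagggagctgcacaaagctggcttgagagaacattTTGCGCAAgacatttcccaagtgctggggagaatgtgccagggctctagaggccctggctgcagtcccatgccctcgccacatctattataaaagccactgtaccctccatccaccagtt

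Kininogens are precursors of the kinin peptides, which widen vessels and raise their permeability, and they also inhibit cysteine proteases. Kng2, 1 of the pair of mouse kininogen genes, stood at 8.80 with air and 11.18 with smoke, with a difference of 2.38 (5.21-fold). None of the 200 genes of like level had a difference as high, and their robust SD was 0.47. Kng2 was well above the filter on both arrays, and its difference was 2.34 with the offset. Kng1, the other kininogen gene and its neighbour on chromosome 16, was below the filter at 3.27 and 3.14. Hrg and Fetub, liver-type plasma protein genes on its other side, were below the filter too, at 2.56 and 3.40 in air and 2.46 and 3.88 in smoke. Of the nearest measured genes, Rfc4 alone was above the filter, at 6.49 and 6.07, within 2-fold.

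Signals of the kinin system around Kng2 were mixed. The kinin receptors Bdkrb1 and Bdkrb2 were below the filter, at 2.68 and 2.35 in air and 3.06 and 2.64 in smoke. F12, the coagulation factor that starts the contact system, was below it at 3.48 and 2.51. The kinin-degrading enzymes Ace and Cpn1 were above it, at 12.60 and 8.60 in air and 12.44 and 9.29 in smoke, both within 2-fold. The Kng2 promoter, at chr16:23029102-23029351 on the minus strand, is shown because Kng2 alone of the kininogen pair was above the level filter. No window was found for Kng1, so the promoters of the pair were not compared. The Kng2 window held 1 C/EBP match, 112 to 105 bases before the start.
Kng2: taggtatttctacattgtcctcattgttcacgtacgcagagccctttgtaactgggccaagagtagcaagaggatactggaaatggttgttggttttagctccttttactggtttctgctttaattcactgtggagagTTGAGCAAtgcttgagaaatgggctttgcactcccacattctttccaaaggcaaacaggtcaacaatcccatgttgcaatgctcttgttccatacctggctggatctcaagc

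Itih4 encodes a heavy chain of the inter-alpha-trypsin inhibitor family that circulates without the bikunin light chain. It stood at 13.09 with air and 14.58 with smoke, with a difference of 1.49 (2.81-fold), and 1 of the 200 genes of like level had a difference as high (robust SD 0.37). Its relatives Itih1 and Itih3, which follow it on chromosome 14, were at 5.97 and 3.78 in air and at 6.46 and 3.99 in smoke. Both were within 2-fold, Itih3 below the filter. The Itih4 window of 250 bases held 1 STAT match, TTCCGAGAA, and no C/EBP or NF-kB match.

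Lrg1 encodes leucine-rich alpha-2-glycoprotein, which binds endoglin and modifies TGF-beta signalling in endothelium and is also stored in neutrophil granules. It stood at 14.36 with air and 15.72 with smoke, with a difference of 1.36 (2.57-fold). As for Itih4, 1 of the 200 genes of like level had a difference as high (robust SD 0.36). The endothelial receptors Eng (endoglin) and Acvrl1 (ALK1) were at 13.63 and 8.78 in air and 12.60 and 7.73 in smoke. They were 2.04-fold and 2.07-fold lower (with the offset, differences of -1.03 and -0.997). Tgfbr2, a TGF-beta receptor, was at 11.23 in air and 11.22 in smoke. Of the 11 endothelial markers, Eng among them, 9 were lower and 2 higher, with a median difference of -0.68. Any relation of these values to Lrg1 was not tested. The Lrg1 window held no match to the 3 motifs.

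Haptoglobin captures free haemoglobin and hands it to the macrophage receptor CD163. Hp stood at 16.46 with air and 16.89 with smoke, with a difference of 0.43 (1.35-fold). This was 1.26 times the robust SD of genes of like level (0.34), and 30 of those 200 genes had a difference as high. Cd163 was below the filter at 3.28 and 2.92, and Hmox1, the haem-degrading enzyme, was at 10.36 and 10.76. Hp was therefore the member above the filter whose difference lay within the bulk of genes of like level.

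**Figure D2:**
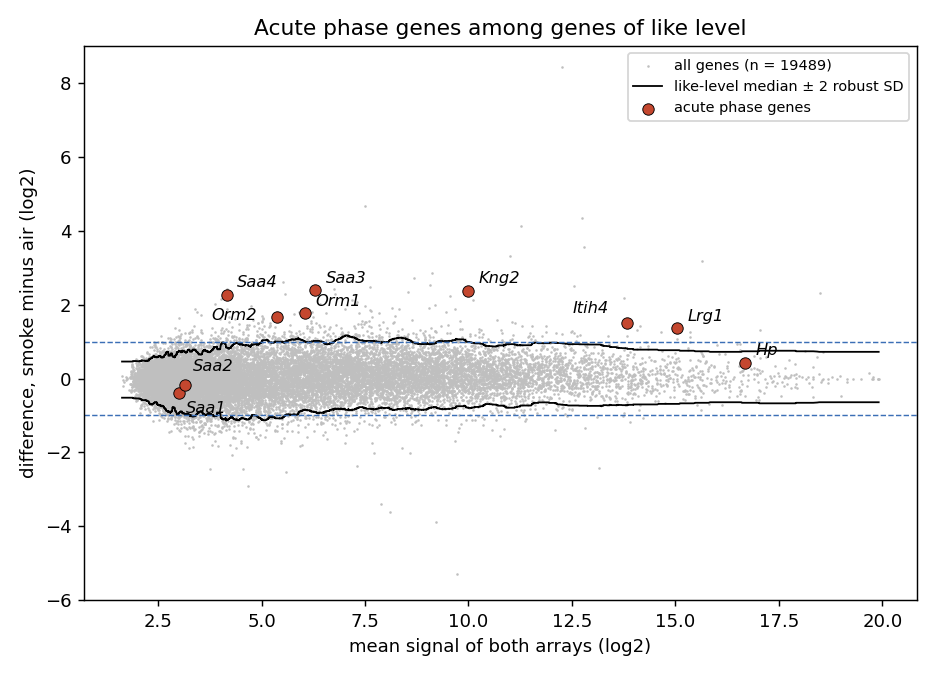
Difference between the arrays (smoke minus air, log2) against the mean signal of both arrays (log2) for all 19489 genes with a measurable difference (grey) and for the acute phase genes (red). Black lines are the median of genes of like level plus and minus 2 robust SDs, and dashed lines mark 2-fold. The 7 members past 2-fold lie above the upper black line at low, middle and high levels, while Hp, Saa1 and Saa2 lie between the lines.

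Across the chromosomes, the 2 measured protein-coding genes on each side of every member gave 25 genes that were no members. Of these, 12 were above the filter, and 0 of them were at least 2-fold higher or lower. Over all genes above the filter, 3.94% were higher and 2.48% lower, so 0 of 12 is near the shares over all genes. Saal1, with a difference of 1.06, was not counted because neither of its values reached the filter. With no replicates the count has no test.

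Other positive acute phase plasma proteins were mostly below the level filter. Of 33 genes listed, 31 were measured, 21 were below the filter, 1 (Lcn2, the siderophore-binding lipocalin) stood at the limit of the scale and 9 were above the filter. Lbp, which carries bacterial lipopolysaccharide to CD14, stood at 14.73 with air and 15.98 with smoke, with a difference of 1.25 (2.38-fold). Cd14, its receptor, stood at 9.20 and 10.26, a difference of 1.06. Fgl1, a fibrinogen-like liver protein, was lower, at 5.05 and 3.63, a difference of -1.42 that was -0.79 with the offset. Fgl1 passed the filter through the air array alone, so its difference was in part required by the filter. The other 6 above the filter were within 2-fold. The median difference was -0.075 over the 30 genes not at the limit, 21 of them below the filter. Over the 9 above the filter it was 0.49, beside 0.06 over all genes above the filter.

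Several plasma acute phase genes of liver were below the filter. Crp was at 2.76 and 2.77, the pentraxin Apcs at 2.91 and 2.65, and the fibrinogen chains Fga, Fgb and Fgg at 3.71, 3.66 and 4.53 in air and 3.40, 3.51 and 4.43 in smoke. Hpx, the haem carrier haemopexin, was at 3.20 and 2.69. Others were above it and within 2-fold, among them Cp, the copper-binding ferroxidase ceruloplasmin (9.16 and 9.79), the serpin Serpina3n (6.73 and 6.55) and Hamp, the iron hormone hepcidin (5.34 and 5.08). These genes and Stat3 below were picked from the lists after their values were seen. The acute phase genes above the filter in these cells were thus a part of the set and not the whole of it.

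Hepatocyte markers were measured as a check for other liver-type RNA. Of 14, 10 were below the filter on both arrays, among them Ttr (2.80 and 2.72), Apoa1 (2.70 and 2.18) and Apoa2 (2.57 and 2.19). The 4 above it were the transferrin gene Trf (14.85 and 15.83), Rbp4 (10.15 and 9.84), Alb (5.62 and 5.34) and Serpina6 (5.09 and 4.29), all within 2-fold. Serpina6 was above it on the air array alone. The log2 of their summed signal was 14.91 in air and 15.86 in smoke, most of it from Trf.

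The cytokines that induce acute phase genes were low apart from 3 of 11. Il6 stood at 5.60 with air and 6.65 with smoke, with a difference of 1.05 that was 0.85 with the offset. Il1b was at 9.42 and 9.62 and Ctf1, cardiotrophin 1, at 7.82 and 7.43. Tnf was below the filter at 2.98 and 3.11. The list had a median difference of -0.21, beside -0.02 over all genes, but 8 of its 11 genes were below the filter. Over the 3 above the filter the median was 0.20, beside 0.06 over all genes above the filter.

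Receptors of these cytokines were above the filter for 8 of 10 measured genes. Osmr, the oncostatin M receptor chain that pairs with gp130, stood at 9.22 and 10.30, a difference of 1.08. Il10rb, a shared chain of the interleukin-10 and interleukin-22 receptors, stood at 10.98 and 12.12, a difference of 1.14. The interleukin-22 receptor gene Il22ra1 was below the filter at 2.99 and 2.91. The other 6 above the filter were within 2-fold, among them gp130 itself (Il6st, 14.13 and 14.38) and Il6ra (7.17 and 7.22). The median of the list was 0.08.

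Among kinases, transcription factors and feedback inhibitors, 13 of 14 measured genes were above the filter, 2 of them at least 2-fold higher and 11 within 2-fold. Nfkbia, the NF-kB inhibitor that NF-kB itself induces, stood at 10.57 with air and was 2.69-fold higher with smoke, a difference of 1.43. Cebpd, a C/EBP factor of the acute phase response, stood at 9.21 and 10.23, a difference of 1.02. Stat3 stood at 12.94 and 13.87, a difference of 0.93, under 2-fold. Socs3, the feedback inhibitor of STAT3 signalling, was at 6.39 and 6.35, and Cebpb at 5.63 and 5.68. The median of the list was 0.065. Differences of Cd14, Osmr and Cebpd fell under 2-fold after quantile normalization (0.95, 0.97 and 0.90) and after centring on genes of like level (0.88, 0.89 and 0.85).

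Receptors and partners of the member proteins numbered 17 measured genes, 12 of them above the filter. Tlr2, a pattern receptor that serum amyloid A activates, stood at 6.72 and 7.85, a difference of 1.13. P2rx7, an ATP-gated channel also tied to serum amyloid A, was at 4.76 and 3.60, a difference of -1.16 that was -0.62 with the offset. P2rx7 passed the filter through the air array alone, so its difference was in part required by the filter. With Eng and Acvrl1, 3 genes of this list were at least 2-fold lower and 1 at least 2-fold higher. Over all genes above the filter, 2.48% were lower and 3.94% higher. The median of the list was -0.16.

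**Figure D3:**
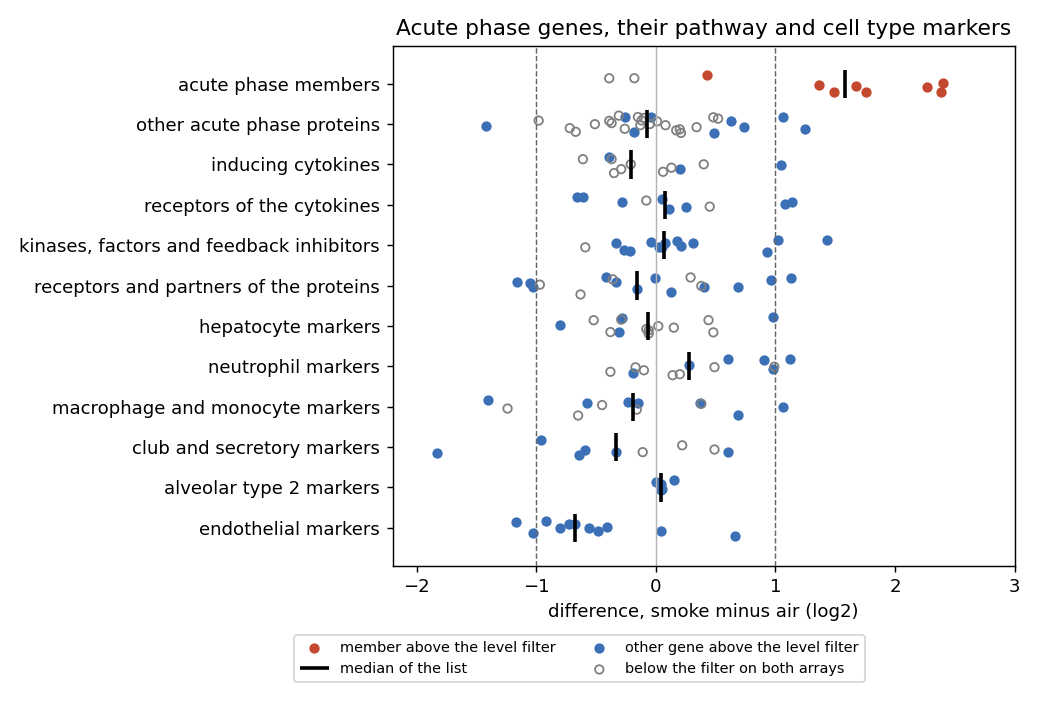
Difference between the arrays (smoke minus air, log2, horizontal axis) of each gene of the acute phase members, their pathway lists and the marker lists. Filled points are above the level filter, open points below it on both arrays, vertical bars are list medians and dashed lines mark 2-fold. The members' median of 1.58 lies right of the 2-fold line, and the medians of the other lists lie between -0.68 (endothelial) and 0.28 (neutrophil). These medians include genes below the filter.

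Several members are also transcribed by leukocytes, and marker levels of other cell types are given here as measured; their part in the members' differences was not tested. Of 13 neutrophil markers, 6 were above the filter, and Il1r2 alone was past 2-fold (4.49 and 5.61, a difference of 1.12 that was 0.75 with the offset). In all, 9 of the 13 were higher and 4 lower. For this and the later marker counts, the base over all 19489 genes with a measurable difference was 9302 higher and 9971 lower. The log2 of their summed signal was 9.25 in air and 9.74 in smoke. Csf3r was at 8.12 and 8.72 and S100a8 at 6.72 in air with a difference of 0.28. Cxcr2 (5.18 and 6.16) and Retnlg (4.25 and 5.15) had differences of 0.98 and 0.90, and the granule gene Mmp8, below the filter at 3.47 and 4.46, had one of 0.99. The granule genes Mpo, Elane, Ltf, Camp and Ngp were all below the filter, with differences from -0.38 to 0.20. The median difference was 0.28 over the 13 markers and 0.75 over the 6 above the filter, of which Il1r2 and Retnlg passed it through the smoke array alone. Macrophage and monocyte markers had a summed signal of 12.12 in air and 11.84 in smoke, with 4 of 12 higher and 8 lower. Chil3 was 2.64-fold lower (11.27 and 9.87), and Cd14, also a monocyte gene, is given above. Adgre1, which encodes F4/80, was below the filter at 4.43 and 4.27. In a bulk sample, more cells of a type and more RNA per cell cannot be told apart.

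Secretory airway cells also transcribe acute phase genes. Scgb1a1, the main secretoglobin of club cells, stood at the limit of the scale on either array. The 9 other club and secretory markers had a summed signal of 16.16 in air and 15.83 in smoke on the log2 scale and a median difference of -0.33, with 3 higher and 6 lower. Scgb3a1 was 3.56-fold lower (6.85 and 5.02), Cyp2f2 was at 16.13 and 15.80, and Scgb3a2 was on the higher side, at 8.40 in air with a difference of 0.60. The 11 endothelial markers, all above the filter, had a median of -0.68 and a summed signal of 15.33 in air and 14.68 in smoke, and Cldn5 and Eng were at least 2-fold lower. The brightest endothelial genes, Cdh5 and Eng, were at 14.34 and 13.63 in air and 13.86 and 12.60 in smoke.

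**Figure D4:**
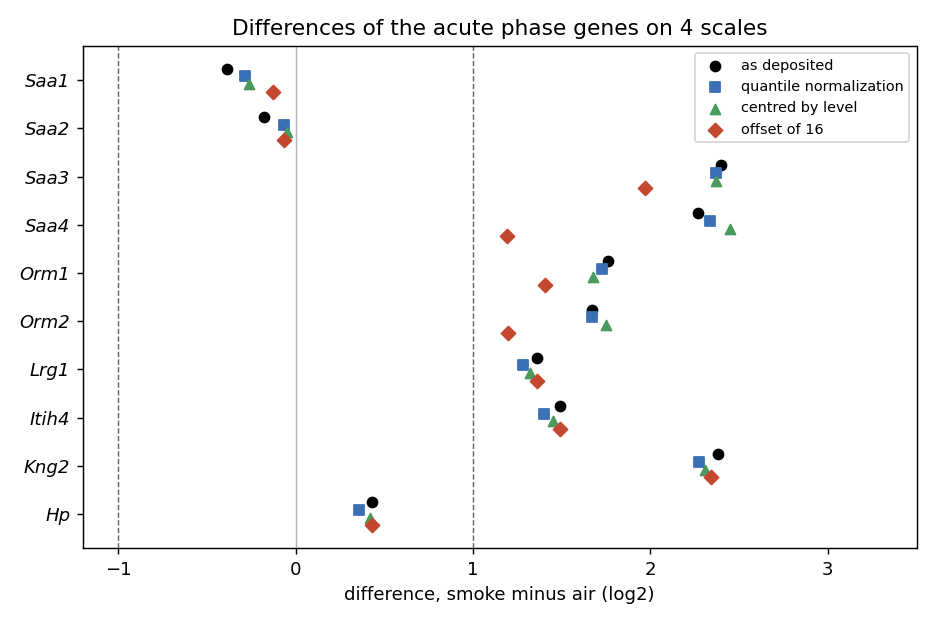
Difference between the arrays (smoke minus air, log2, horizontal axis) of each acute phase gene as deposited (black circles), after quantile normalization (squares), after centring on genes of like level (triangles) and after adding 16 to the linear signal (diamonds). Dashed lines mark 2-fold. All 7 genes past 2-fold stay right of the line on all 4 scales, and the offset moves Saa4 from 2.27 to 1.19.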

How the data were processed

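The authors deposited 1 log2 signal per array and platform identifier (here a probe). No label names the log2 scale: it was inferred from the range, 1.55 to 19.93, and the medians, 4.61 (air) and 4.53 (smoke). Per the submitters' processing notes the software was Transcriptome Analysis Console; its version and settings, and the build, are not given in these sources, so the scale's centring is unknown, and folds hold on the deposited scale only. Per the platform annotation, 19572 of 22206 probes had a gene symbol and 2634 are unnamed here. Probes of 1 gene were averaged, differences taken as smoke minus air, and calls made at 2-fold above the level filter of 4.57; 16 genes at the upper limit in both groups were left out. The members and lists were chosen with earlier results of these data known. All members are named, with up to 5 genes per direction past 2-fold of each other list or the gene with the largest difference, and the 2 brightest of each marker list; others named were chosen after their values were seen. Promoters were aligned globally with Biopython. Alternatives were filters, thresholds, quantile normalization, centring by level, an offset of 16 and the brightest probe. Python 3.11.15, pandas 2.3.3 and numpy 2.4.6 were used.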

Additional observations from a re-analysis of the deposited data

How the results depend on the processing

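The count of 7 members at least 2-fold higher was also 7 after quantile normalization, after centring by level and with the offset of 16. Without the level filter and at 1.5-fold it was 7 too, but these settings can only add members. The brightest probe of each gene also gave 7, but each member had 1 probe, so this setting could not change their values. The count was 6 with the filter on the mean of both arrays, which leaves out Saa4, and 5 at 3-fold. With the filter at the 75th percentile (7.60), where 4 members are above it, the count was 3. The count of members at least 2-fold lower was 0 under all of these. The median of 1.58 was 1.54 after quantile normalization, 1.56 after centring by level and 1.28 with the offset. Of the single members, Saa4 alone moved by more than the spread of genes of like level, to 1.19 with the offset. Over all genes, the 410 higher and 258 lower became 212 and 74 with the 75th percentile filter, 1514 and 958 at 1.5-fold, 66 and 35 at 3-fold and 243 and 102 with the offset, and 407 were lower with no filter. No paired analysis was possible because each group has 1 array, and for the same reason no replicate could be left out. Low signals limit the Saa and Orm genes, since no detection calls were used.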
